A study of Macaca mulatta with 18 samples.

Results

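The genes described here encode the collagens, laminins, TIMPs (tissue inhibitors of metalloproteinases), fibulins, fibrillins and thrombospondins of the extracellular matrix. They were found by symbol in the expression tables, and 60 of the 30246 genes listed matched: 37 collagen genes and 23 others, of which 9 encode laminin chains. Each symbol had 1 locus. Brains of 6 rhesus monkeys were sampled, 3 of Chinese and 3 of Indian origin, and each animal gave 3 RNA libraries: 1 from prefrontal cortex (PFC), 1 from striatum (STR) and 1 from cerebellum (CER), which makes 18 libraries. Ages were 7.5, 15 and 16 years for the monkeys of Indian origin, and 10.5, 11 and 11.5 years for those of Chinese origin. All were adults on the same stock diet with fruit and vegetables, and no transgene or treatment is stated for any of them. The Indian-origin animals were born at the primate center whereas the Chinese-origin animals arrived there as young adults, so that origin, early life and age cannot be told apart.

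The extracellular matrix is the meshwork of secreted proteins between cells. In brain, most of it is made of proteoglycans and hyaluronan, and collagens and laminins are concentrated in the basement membranes around blood vessels and in the meninges. Collagens are trimers wound from chains in which glycine recurs at a fixed spacing, while a laminin is a cross-shaped trimer of an alpha, a beta and a gamma chain. TIMPs block the proteases that cut the matrix, fibulins and fibrillins belong to elastic fibers and microfibrils, and thrombospondins are secreted glycoproteins that act on cell surfaces and growth factors.

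Expression is given as FPKM, the number of fragments scaled to transcript length and to library size, with 1 pooled value per gene, region and origin. Values for single monkeys were not analysed here, so no spread between monkeys, no error and no p-value accompany any value, and the tables give no depth per library. Mean read numbers per origin and region, which the study states, were not used here. An origin difference is the log2 of Chinese over Indian FPKM after addition of 0.1 FPKM to both. Over genes with at least 1 FPKM in 1 or both origins, the PFC median of this ratio was 0.19, the CER median 0.10 and the STR median 0.31. Differences are therefore stated relative to that regional median, and a gene was counted as higher or lower when the difference reached 1.5-fold (0.58 on the log2 scale). In bulk tissue, fewer cells of a type and less RNA per cell cannot be told apart.

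The region labels were checked against neuronal markers. Markers of striatal projection neurons had a summed level of 1816.7 (Chinese origin) and 1624.7 FPKM (Indian origin) in STR, compared to 140.6 to 181.1 in PFC and CER, and cerebellar neuron markers had 2744.2 and 2576.1 FPKM in CER, compared to 45.1 to 144.1 elsewhere. None of the astrocyte and oligodendrocyte markers differed between origins by 1.5-fold in any region.

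Of the 60 genes, 48 reached 1 FPKM in at least 1 region and origin, 31 of them collagens. In PFC 45 genes reached this level, in CER 40 and in STR 44, and 37 did so in all 3 regions. The 12 others included COL1A1, COL4A6, COL6A3, COL7A1, COL8A2, COL10A1, FBN2, FBN3, LAMB3, LAMB4 and THBS4. COL1A1, a chain of the main fibrillar collagen of skin and bone, lay between 0.0920 and 0.693 FPKM. LAMB3, a chain of the laminin of skin, was listed at 0 in all regions on an unplaced scaffold. For 5 genes (COL11A2, COL16A1, FBN1, LAMA3 and THBS3) the tables marked the locus FAIL in every region, which is Cuffdiff's sign that its calculation did not complete, and for 4 more in 1 or 2 regions.

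**Figure D1:**
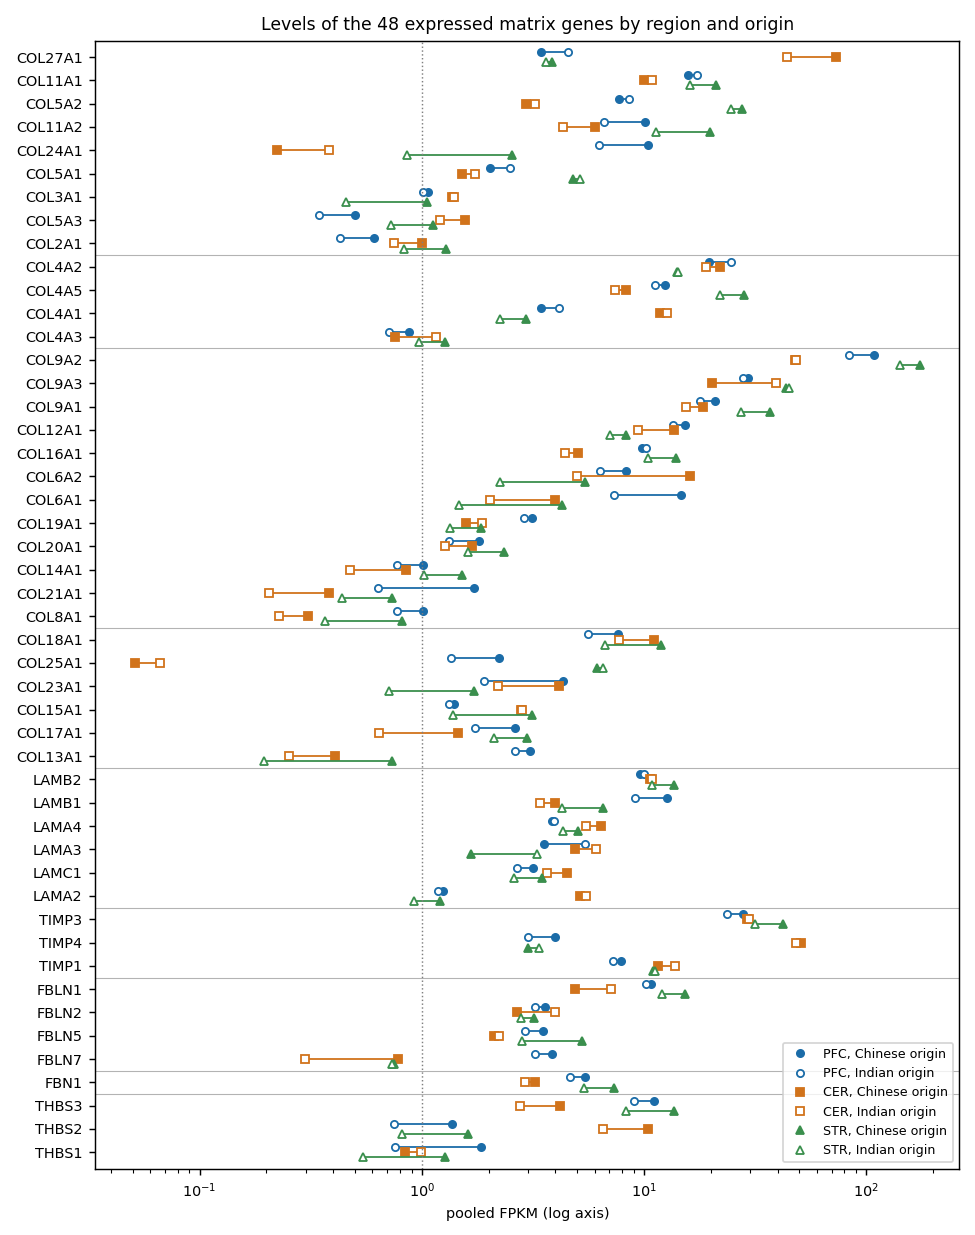
Pooled FPKM (log axis) of the 48 genes that reached 1 FPKM, by region (color and shape) and origin (filled, Chinese; open, Indian), ordered by family. COL9A2 had the highest levels of the set in PFC and STR, up to 175.3 FPKM in Chinese-origin STR, and COL27A1, TIMP4 and COL9A2 were the 3 highest in CER.

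Collagen IX had the highest FPKM of the collagens in PFC and STR. It is a FACIT, a collagen with interrupted helices that coats the fibrils of cartilage, and its chains are encoded by COL9A1, COL9A2 and COL9A3. COL9A2 had 108.1 and 83.5 FPKM in PFC of Chinese- and Indian-origin monkeys, 47.97 and 48.2 in CER, and 175.3 and 142.6 in STR. The levels of COL9A1 in PFC were 20.9 and 18.0 FPKM, in CER 18.4 and 15.5, and in STR 37.0 and 27.3. COL9A3 was at 29.6 and 28.0 FPKM in PFC and at 43.8 and 45.2 in STR. In CER, however, COL9A3 was at 20.3 FPKM in Chinese-origin and at 39.2 FPKM in Indian-origin monkeys, so that the ratio of COL9A2 to COL9A3, both per length, was 2.36 in CER of Chinese-origin monkeys and 1.23 in CER of Indian-origin monkeys. All 3 chains were highest in STR in both origins.

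Among fibrillar collagens, COL11A1 had the highest levels in PFC, COL5A2 in STR and COL27A1 in CER. COL11A1, a minor chain that starts fibrils in cartilage, ranged from 9.97 FPKM in Chinese-origin CER to 21.1 in Chinese-origin STR. COL11A2, its partner chain with a FAIL mark throughout, ranged from 4.32 to 19.9 FPKM. COL5A2 was at 27.5 and 24.6 FPKM in STR, at 7.73 and 8.54 in PFC and at 2.95 and 3.23 in CER, which gives the same regional order in both origins. COL5A1, which pairs with COL5A2 in collagen V, was lower than COL5A2 in each of the 6 groups, by 1.86- to 5.71-fold. COL2A1 and COL3A1, the main chains of cartilage collagen and of the collagen of vessel walls, did not exceed 1.39 FPKM in any group.

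In the collagens of basement membranes, COL4A2 exceeded COL4A1 in FPKM in all groups. Both chains enter the same trimer, but FPKM is scaled to the annotated transcript length, and completeness of these gene models was not checked. That limit holds for every ratio between chains given here. COL4A2 was at 19.6 and 24.6 FPKM in PFC, 21.9 and 19.1 in CER and 14.1 and 14.2 in STR (Chinese and Indian origin, respectively). COL4A1 was at 3.44 and 4.13 FPKM in PFC, 11.8 and 12.8 in CER and 2.93 and 2.24 in STR. The ratio of COL4A2 to COL4A1 was thus 1.49 to 1.86 in CER and 4.82 to 6.34 in PFC and STR. COL4A5, on the X chromosome, had its highest levels in STR, with 28.2 and 22.1 FPKM, against 12.5 and 11.2 in PFC and 8.32 and 7.39 in CER. A locus of a Y RNA, a small noncoding RNA, lies within that of COL4A5.

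Of the 9 laminin genes, 6 reached 1 FPKM in each region: LAMA2, LAMA3, LAMA4, LAMB1, LAMB2 and LAMC1. LAMA3, with a FAIL mark throughout, ranged from 1.66 to 6.06 FPKM. LAMB2, a beta chain known from synaptic basement membranes of muscle, was at 9.66 and 10.05 FPKM in PFC, 10.7 and 10.9 in CER and 13.7 and 10.9 in STR. LAMB1 was highest in PFC with 12.8 and 9.16 FPKM, compared to 3.98 and 3.40 in CER and 6.57 and 4.30 in STR. LAMC1, the gamma chain of most laminins, ranged from 2.61 to 4.52 FPKM, and LAMA4, an alpha chain of vessel walls, from 3.86 to 6.41. LAMA2, whose loss causes a congenital muscular dystrophy in humans, was at 5.14 and 5.46 FPKM in CER, where its locus was marked FAIL, and between 0.920 and 1.24 elsewhere. The ratio of LAMA4 to LAMA2 was 1.248 and 1.01 in CER and 3.10 to 4.71 in PFC and STR.

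The protease inhibitor genes TIMP1, TIMP3 and TIMP4 lie within synapsin genes, which encode proteins of synaptic vesicles in neurons. By the tables, the loci of TIMP1 and SYN1 overlapped, as did those of TIMP3 and SYN3, and that of TIMP4 overlapped a gene without a symbol there that the reference names SYN2. Reads of overlapping genes cannot be told apart by strand here, because the counting is not stated to use strand. TIMP3, which binds to the matrix itself, was at 27.9 and 23.7 FPKM in PFC, 29.1 and 29.7 in CER and 42.4 and 31.5 in STR. SYN3 lay between 2.59 and 6.21 FPKM. A further gene without a symbol also overlapped TIMP3 and was above it in each group. Its levels were 48.7 and 45.1 FPKM in PFC, 45.8 and 46.1 in CER, and 70.1 and 56.5 in STR. TIMP4 was at 50.9 and 48.5 FPKM in CER but only at 3.97 and 3.02 in PFC and 3.01 and 3.39 in STR. Its neighbor SYN2 was at 58.2 and 54.7 FPKM in CER and higher, at 93.6 and 81.0, in PFC, whereas TIMP4 was lower in PFC than in CER. TIMP1 lay between 7.23 and 13.7 FPKM, while SYN1 lay between 27.3 and 156.0.

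Fibulins, fibrillins and thrombospondins had lower levels. FBLN1, which binds fibronectin and basement membranes, was at 15.3 and 12.05 FPKM in STR, 10.7 and 10.2 in PFC and 4.88 and 7.10 in CER. FBLN2 ranged from 2.69 to 3.97 FPKM and FBLN5, needed for elastic fibers in mice, from 2.11 to 5.27. FBN1, the microfibril gene mutated in Marfan syndrome, ranged from 2.93 to 7.36 FPKM with a FAIL mark throughout. THBS3 was the most abundant thrombospondin in PFC and STR (9.04 to 11.1 and 8.34 to 13.7 FPKM), and THBS2 in CER.

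Regional differences were larger than origin differences for several members. The 3 regional tables were normalized separately, so levels set across regions carry that limit. Each region was also sequenced in its own lane, so that region and lane cannot be told apart. Among the 48 expressed genes, 17 were highest in STR, 11 in CER and 9 in PFC in both origins, and for 11 the highest region differed between origins. As shares, 18.8% of members were highest in PFC (17.1% of all 19002 genes with at least 1 FPKM in some group), 22.9% in CER (42.1% of all genes) and 35.4% in STR (19.5% of all genes). The highest region exceeded the lowest at least 4-fold in both origins, with the same highest region, for 10 members, or 20.8%, against 12.6% of all genes. These were COL4A1, COL27A1, LAMA2, THBS2 and TIMP4 in CER, COL13A1, COL24A1 and FBLN7 in PFC, and COL5A2 and COL25A1 in STR.

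COL27A1, a fibrillar collagen of cartilage, and TIMP4 stood out in CER. COL27A1 (ENSMMUG00000008562, chromosome 15 from 21825751 to 21875654 in mmul1) was at 73.1 and 44.0 FPKM in CER, compared to 3.44 and 4.54 in PFC and 3.87 and 3.63 in STR. Its mean level in CER was 14.7 times that of the next region, and that of TIMP4 (ENSMMUG00000001127) was 14.2 times. A further locus without a symbol in the tables, which the reference also names COL27A1, was at 80.7 and 46.0 FPKM in CER and between 2.95 and 3.63 elsewhere. THBS2 followed with 10.4 and 6.56 FPKM in CER, against 0.749 to 1.62 in PFC and STR.

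COL24A1, another fibrillar collagen, was a gene of PFC in these data. COL24A1 (ENSMMUG00000013205, chromosome 1 from 88495393 to 88896323) was at 10.5 and 6.31 FPKM in PFC, 2.55 and 0.862 in STR and 0.223 and 0.384 in CER. COL13A1, a transmembrane collagen of the neuromuscular junction, was at 3.06 and 2.64 FPKM in PFC and under 1 in the other regions. FBLN7 was at 3.86 and 3.24 FPKM in PFC and likewise under 1 elsewhere. The transmembrane collagen COL25A1, found in amyloid plaques of human brain, was highest in STR. It had 6.13 and 6.54 FPKM there, 2.23 and 1.35 in PFC, and 0.0510 and 0.0662 in CER.

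**Figure D2:**
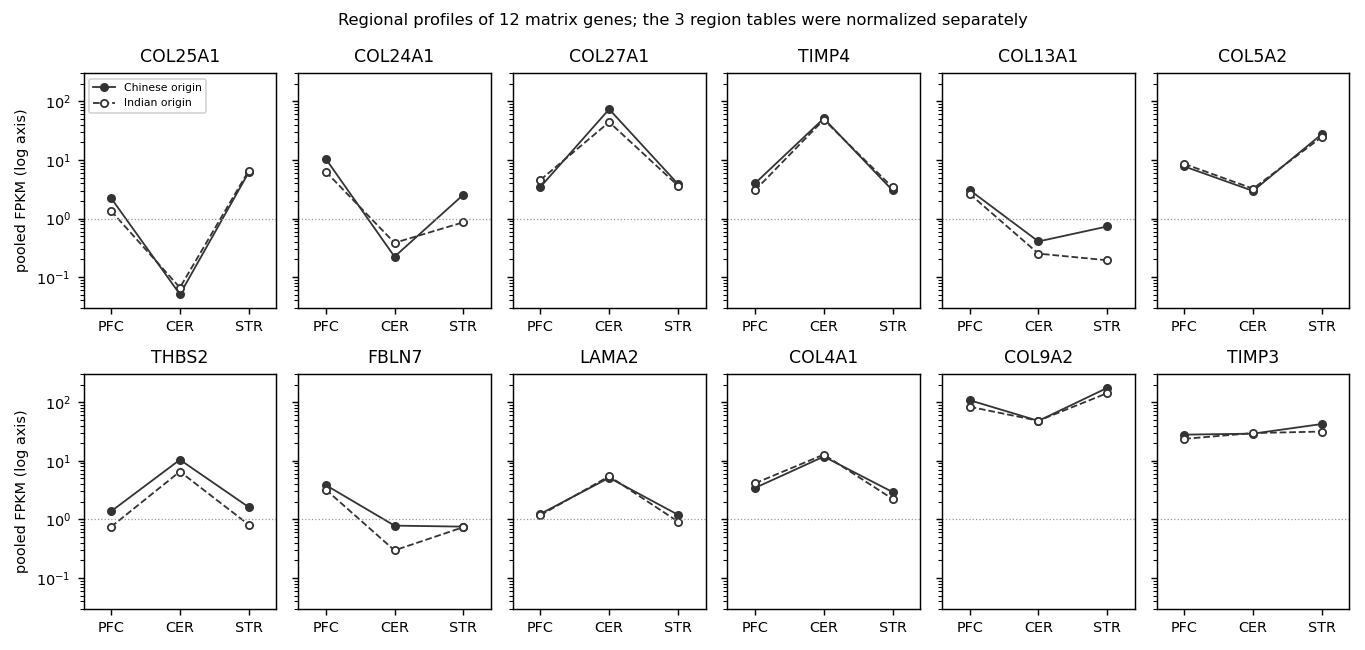
Pooled FPKM (log axis) of 12 matrix genes in PFC, CER and STR for Chinese origin (filled, solid line) and Indian origin (open, dashed line), with a dotted line at 1 FPKM. COL27A1 and TIMP4 peak in CER in both origins, COL24A1 in PFC and COL25A1 in STR, whereas TIMP3 changes little, between 23.7 and 42.4 FPKM.

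Between origins, matrix genes past 1.5-fold were more often higher than lower in Chinese-origin PFC and STR. In PFC, 5 of the 45 genes counted (11.1%) were higher, compared to 5.64% of all genes, and 1 (2.22%) was lower, compared to 5.93%. STR had 8 of 44 (18.2%) higher, compared to 8.36% of all genes, and 1 (2.27%) lower, compared to 5.59%. In CER, 5 of 40 (12.5%) were higher and 4 (10%) lower, against 6.7% and 6.46% of all genes. Without subtraction of the median, the members higher and lower were 8 and 1 in PFC (all genes 8.14% and 4.86%), 7 and 1 in CER (7.81% and 5.57%), and 13 and 1 in STR (19.1% and 4.01%). The median difference over members, relative to all genes, was close to 0 in PFC (0.03) and CER (0.06) and 0.12 in STR. At 5 FPKM and more, 1 of 22 members was higher in PFC (4.55%, all genes 4.53%), 2 of 22 in CER (9.09%, all genes 5.38%) and 1 of 23 in STR (4.35%, all genes 6.41%). Most members counted as higher therefore had levels under 5 FPKM. Between 1 and 5 FPKM, 4 of 23 members were higher in PFC (17.4%, all genes 9.62%) and 0 lower (all genes 9.32%). In CER 3 of 18 were higher there (16.7%, all genes 12.1%) and 2 lower (11.1%, all genes 11.99%). In STR 7 of 21 were higher (33.3%, all genes 15.4%) and 1 lower (4.76%, all genes 8.46%). With 1 FPKM added in place of 0.1, the number of members past 1.5-fold was 3 for PFC, 5 for CER and 4 for STR. Of these, 2 were higher and 1 lower of 45 in PFC (all genes 4.55% and 5.20%). In CER 4 were higher and 1 lower of 40 (5.38% and 5.38%), and in STR 3 and 1 of 44 (6.13% and 4.86%).

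**Figure D3:**
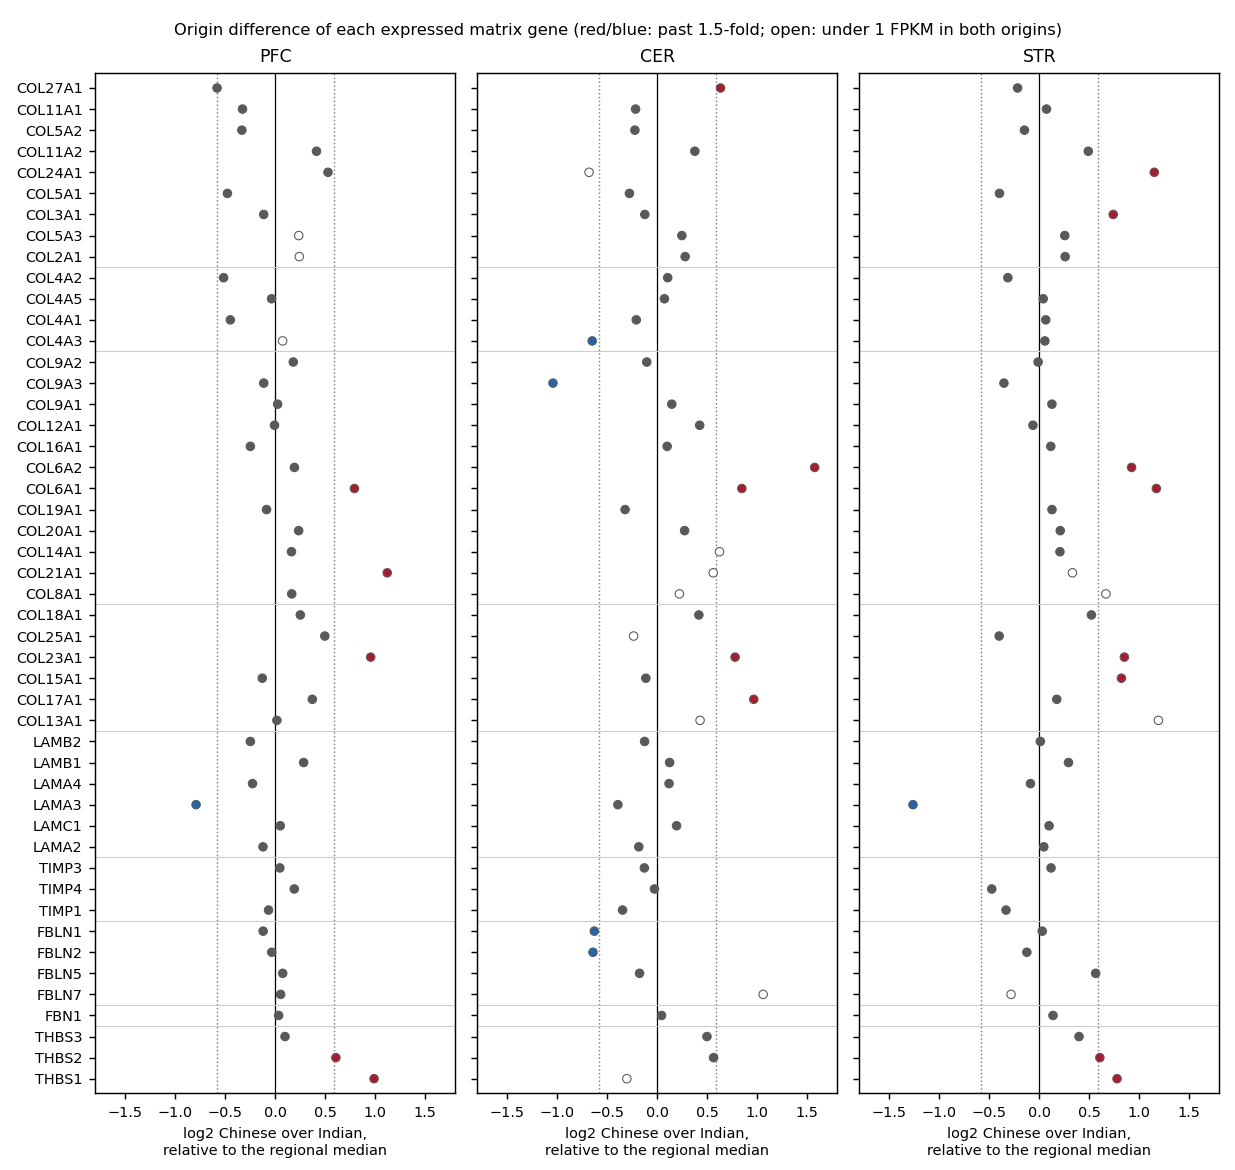
Log2 of Chinese over Indian pooled FPKM, relative to the regional median, for the 48 expressed genes in PFC, CER and STR, with dotted lines at 1.5-fold. Red points are higher and blue points lower past that line, and open points are under 1 FPKM in both origins; COL6A1 and COL23A1 are red in all 3 panels.

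A collagen VI chain and collagen XXIII were higher in Chinese-origin monkeys in every region. COL6A1 and COL23A1 were the 2 members past 1.5-fold in all 3 regions, of 37 counted in all 3 (5.41%, against 0.771% of 15431 genes), and no member was lower in all 3 (0.862% of all genes). Because the regions came from the same 6 monkeys, they are not independent. Collagen VI forms beaded filaments near basement membranes, and its chains COL6A1, COL6A2 and COL6A3 are mutated in human muscle disease. COL6A1 (ENSMMUG00000000544, chromosome 3 from 776170 to 797069) was at 14.6 FPKM in PFC of Chinese origin and 7.35 FPKM in PFC of Indian origin, 3.98 and 2.02 in CER, and 4.30 and 1.48 in STR. Relative to the median its log2 difference was 0.79 in PFC and 0.84 in CER, and largest in STR with 1.17.

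COL6A2 (ENSMMUG00000022317, chromosome 3 from 648984 to 670454), the neighbor of COL6A1, was at 8.28 and 6.32 FPKM in PFC, 16.2 and 5.01 in CER, and 5.43 and 2.25 in STR. Its log2 difference was 1.57 in CER and 0.92 in STR, while PFC, at 0.19, stayed within 1.5-fold. The value of 1.57 in CER was the largest of the set and rests on a locus marked FAIL in that region. COL6A3, the chain that completes the trimer, remained under 1 FPKM in all groups, with 0.491 and 0.762 FPKM in PFC, 0.428 and 0.446 in CER, and 0.203 and 0.186 in STR. The ratio of COL6A1 to COL6A3 was 29.8 in PFC of Chinese origin and 9.64 in PFC of Indian origin, 9.31 and 4.53 in CER, and 21.2 and 7.96 in STR. COL18A1, whose cleavage gives the angiogenesis inhibitor endostatin, was counted at a locus on chromosome 3 from 1217116 to 1219840. It was at 7.64 and 5.59 FPKM in PFC, 11.1 and 7.77 in CER, and 11.9 and 6.65 in STR. This locus stayed within 1.5-fold relative to the median in each region (0.25, 0.41 and 0.52 on the log2 scale). A second locus that the reference names COL18A1 gave 0.23 in PFC, 0.22 in CER and 0.73, past 1.5-fold, in STR.

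COL23A1 (ENSMMUG00000004000, chromosome 6 from 174811936 to 175174259) encodes a transmembrane collagen. It was at 4.33 FPKM in PFC of Chinese origin and 1.90 FPKM in PFC of Indian origin, 4.13 and 2.21 in CER, and 1.72 and 0.715 in STR. The log2 differences relative to the median, 0.95, 0.78 and 0.85, were similar across regions. With 1 FPKM added, the STR value was 0.39 and no longer past 1.5-fold. COL17A1, a transmembrane collagen of skin attachment sites, passed in CER alone, with 1.46 and 0.645 FPKM (0.96 on the log2 scale), where its value in PFC was 0.37 and in STR 0.17. Its CER value fell within 1.5-fold, at 0.49, when 1 FPKM was added.

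**Figure D4:**
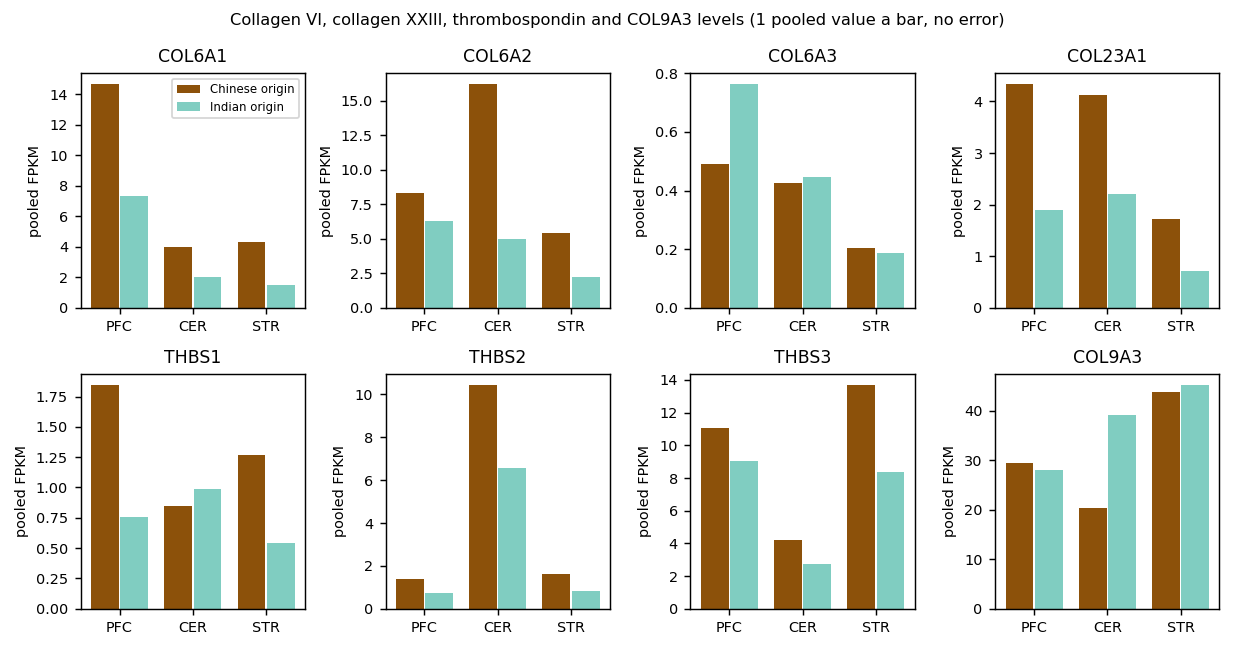
Pooled FPKM (linear axis from 0) of 8 matrix genes in Chinese-origin (brown) and Indian-origin (teal) PFC, CER and STR, with 1 pooled value a bar and no error. COL6A1, COL6A2 and COL23A1 are higher in Chinese origin in each region, and COL9A3 is lower in Chinese-origin CER (20.3 against 39.2 FPKM).

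Thrombospondins THBS1 and THBS2 were higher in Chinese-origin PFC and STR. Both are secreted by astrocytes in rodents, where they promote the formation of synapses, and both restrain the growth of vessels. THBS1 was at 1.84 and 0.757 FPKM in PFC and 1.27 and 0.546 in STR, a log2 difference of 0.99 and 0.78. In CER, THBS1 was under 1 FPKM in both origins (0.845 and 0.990). THBS2 was at 1.38 and 0.749 FPKM in PFC and 1.62 and 0.814 in STR, just past the line with 0.60 in both regions, and at 10.4 and 6.56 in CER, just short of it with 0.56. With 1 FPKM added none of these 4 values passed (0.25 to 0.51). THBS3 stayed within 1.5-fold, with 0.10 in PFC, 0.40 in STR and 0.50 in CER.

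Of the remaining collagens, COL21A1, COL27A1, COL24A1, COL15A1 and COL3A1 were each higher in 1 region. COL21A1, a FACIT, was higher in Chinese-origin PFC with 1.72 and 0.633 FPKM (log2 difference 1.12, and 0.56 with 1 FPKM added, no longer past the line). Fibroblast markers in PFC had 0 higher and 2 lower of 8 (summed 69.1 and 62.5 FPKM), and their part in the PFC differences was not tested. COL27A1 was higher in Chinese-origin CER (73.1 and 44.0 FPKM, 0.63), while in PFC it was at 3.44 and 4.54 (-0.58), just within the line. The second COL27A1 locus gave 0.71 in CER and -0.32 in PFC. COL24A1 was higher in Chinese-origin STR, with 2.55 and 0.862 FPKM (1.15), and had 0.53 in PFC. COL15A1 and COL3A1, collagens of vessels and connective tissue, also passed in STR. COL15A1 was at 3.14 and 1.38 FPKM there (0.82) and COL3A1 at 1.05 and 0.458 (0.74), whereas both lay between -0.13 and -0.12 in PFC and CER. Neither passed in STR when 1 FPKM was added (COL15A1 0.52, COL3A1 0.22).

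Markers of other cells differed between the origins in the same STR samples. All 6 genes listed for cortical excitatory neurons passed in Chinese-origin STR, with a summed level of 82.7 FPKM against 16.7 in Indian-origin STR, and none was at 0. In PFC 0 of these 6 passed (summed 548.6 and 470.9 FPKM). Of 8 markers of leptomeningeal and perivascular fibroblasts in STR, 3 were higher and 1 lower (summed 82.0 and 51.0 FPKM), and of 8 mural cell and 7 endothelial markers none passed (summed 226.7 and 141.4, and 91.1 and 67.1). The mean PFC level of COL24A1 was 9.72 times its Indian-origin STR level, that of COL6A1 7.43 times and that of COL23A1 4.36 times. For COL6A2 this ratio was 3.24, for THBS1 2.38, for COL3A1 2.27, for THBS2 1.30 and for COL15A1 0.990. The part of these cell markers in the STR differences was not tested.

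Lower in Chinese-origin CER were COL9A3, COL4A3, FBLN1 and FBLN2. COL9A3 (ENSMMUG00000016859, chromosome 10 from 1563190 to 1569567) had the largest difference, -1.04 on the log2 scale, with 20.3 against 39.2 FPKM. COL4A3, a chain of kidney and inner ear basement membranes, was at 0.762 and 1.16 FPKM (-0.65). FBLN1 was at 4.88 and 7.10 FPKM (-0.63) and FBLN2 at 2.69 and 3.97 (-0.64). Without subtraction of the median, COL9A3 stayed past 1.5-fold (-0.95), and COL4A3 (-0.55), FBLN1 (-0.53) and FBLN2 (-0.55) did not. With 1 FPKM added COL9A3 also stayed (-1.01), and COL4A3 (-0.39), FBLN1 (-0.55) and FBLN2 (-0.52) again did not. In the same samples, 5 of 7 choroid plexus markers were lower (summed 666.9 FPKM in Chinese and 2105.2 in Indian origin, none at 0), as were 2 of 8 fibroblast markers (97.0 and 98.9 FPKM). Their part in the differences of these 4 genes was not tested.

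LAMA3, the alpha chain of the laminin of skin, was the only member counted as lower in Chinese-origin PFC and STR. It was at 3.54 and 5.42 FPKM in PFC (-0.79), 4.92 and 6.06 in CER (-0.39), and 1.66 and 3.32 in STR (-1.26), with a FAIL mark in all regions. In the same samples choroid plexus markers had a summed level of 15.2 and 32.7 FPKM in PFC, with 1 of 3 counted lower. That one was TTR (7.35 and 26.3 FPKM), whereas KL (-0.01) and KCNE2 (0.20) stayed within 1.5-fold. In STR these markers summed to 34.1 and 46.9 FPKM, with 1 higher and 2 lower of 5. In CER, where LAMA3 stayed within 1.5-fold, 5 of 7 were lower (summed 666.9 and 2105.2 FPKM). No marker of this list was at 0, and its part in the LAMA3 difference was not tested. The other expressed laminin genes stayed within 1.5-fold in each region. Likewise the 3 TIMP genes stayed within it, from -0.48 for TIMP4 in STR to 0.19 for TIMP4 in PFC, as did FBN1 and the chains COL4A1, COL4A2 and COL4A5.

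Members with a difference of the same sign relative to the median in all 3 regions numbered 13 above (35.1% of 37, against 22.3% of all genes) and 6 below (16.2%, against 23.8%). Above in every region were COL6A1, COL6A2, COL9A1, COL11A2, COL17A1, COL18A1, COL20A1, COL23A1, FBN1, LAMB1, LAMC1, THBS2 and THBS3. COL5A1, COL5A2, COL9A3, FBLN2, LAMA3 and TIMP1 were below. Some of these signs rest on the subtraction of the median. Without it, only COL5A1 and LAMA3 were lower in Chinese origin in every region. COL5A2 was then at 0.16 in STR, COL9A3 at 0.08 in PFC, FBLN2 at 0.16 in PFC and 0.18 in STR, and TIMP1 at 0.13 in PFC. Some members above were so by little, such as COL9A1 (0.02) and FBN1 (0.03) in PFC. Neighbors on a chromosome did not always share a sign: COL3A1 and COL5A2 lie 17348 bases apart, and in STR their differences were 0.74 and -0.15.

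Other matrix genes were counted in 7 lists by role, to be read against the shares of all genes (higher and lower, 5.64% and 5.93% in PFC, 6.7% and 6.46% in CER, 8.36% and 5.59% in STR). The list of small leucine-rich proteoglycans and other matrix glycoproteins had 0 higher and 4 lower of 18 in CER, 0 of 17 past the line in PFC, and 2 higher and 0 lower of 16 in STR. Nidogens and basement membrane proteoglycans had 1 higher and 1 lower of 5 in CER and none of 5 past the line in PFC and in STR. Of lecticans, link proteins and tenascins, the main proteoglycans of brain matrix and their partners, 0 of 10 counted in PFC, 0 of 9 in CER and 1 of 10 in STR were higher and none lower. Of collagen-modifying and crosslinking enzymes, 0 were higher and 1 lower of 14 in PFC, 0 and 1 of 13 in CER, and 1 and 0 of 14 in STR. PCOLCE, which enhances the trimming of procollagen, was the lower one in both PFC (0.746 and 1.54 FPKM, -1.15) and CER (1.08 and 2.43 FPKM, -1.20). Among integrins and other matrix receptors, 0 of 18 passed in PFC, while 1 of 17 in CER and 1 of 18 in STR were higher. ITGA11, a collagen receptor subunit, was at 8.38 and 4.34 FPKM in CER (0.83), and ITGA5, a subunit of the fibronectin receptor, at 1.71 and 0.774 in STR (0.74). Matrix proteases held 1 lower gene, MMP2 in CER, with 1.14 and 2.30 FPKM (-1.05), among 11, 9 and 10 counted in PFC, CER and STR. TGF-beta ligands and their binding proteins, which regulate matrix synthesis, had none past the line among 11 counted in each region.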

How the data were processed

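Libraries were made from total RNA with the TruSeq RNA kit and sequenced as single-end reads of 50 bases, with the 6 libraries of a region in 1 lane. Per the labels, FastQC served for quality control, TopHat for alignment to the mmul1 genome, and Cuffdiff (version 0.0.5) for expression estimates. The authors deposited 1 table per region with a pooled FPKM per gene and origin. Each table also holds the authors' own fold changes, test statistics, p-values and q-values, which were not used.

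Rows with a repeated identifier were left out (1, in STR). Members matched fixed symbol patterns; if several loci had matched, that with the highest summed FPKM would have been used. Log2 ratios of Chinese over Indian FPKM were taken after addition of 0.1, and the median over genes with at least 1 FPKM in at least 1 origin was subtracted. A gene counted as higher or lower at 1.5-fold. Regional levels are means of both origins, and the limit of 4-fold between regions was chosen after values were seen. The fold rule was tested on simulated data with known changes. Values in full were given for members past 1.5-fold, the highest members of each family and those with the largest regional ratios, and of other lists the genes with the largest change. The members and lists were chosen with earlier results of these data known. The alternatives were other pseudocounts, folds, FPKM minimums, centring and loci, and for regional levels a division by the region median. Python 3.11.15, numpy 2.4.6, pandas 2.3.3 and matplotlib 3.10.9 were used. Coordinates are those of the tables (mmul1), and 49 of the 60 identifiers had a symbol in the reference table.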

Additional observations from a re-analysis of the deposited data

How the results depend on the processing

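No paired analysis was possible because each table holds 1 pooled FPKM per origin, so neither the replicate numbers nor single monkeys could enter, and no replicate could be left out. In all 3 regions the counts past 1.5-fold depended on the settings for low genes. With 1 FPKM added the counts for PFC, CER and STR were 3 of 45, 5 of 40 and 4 of 44, with the shares of all genes given above. With a minimum of 5 FPKM they were 2 of 22, 4 of 22 and 1 of 23. All genes at that minimum had 4.53% higher and 4.99% lower in PFC, 5.38% and 5.12% in CER, and 6.41% and 4.79% in STR. At a difference of 25% they were 16, 17 and 18, and at 2-fold 1, 2 and 3. The 25% counts were 9 higher and 7 lower of 45 in PFC (all genes 9.79% and 10.2%). In CER they were 10 and 7 of 40 (11.4% and 11.0%), and in STR 12 and 6 of 44 (16.4% and 12.4%). The 2-fold counts were 1 higher and 0 lower in PFC (all genes 3.92% and 4.15%). In CER they were 1 and 1 (4.17% and 4.17%), and in STR 2 and 1 (4.94% and 3.72%). With no minimum FPKM the CER count was 15 of 60, with 7 higher and 8 lower (all genes 6.71% and 6.76%), and the CER median over members was -0.065. Without subtraction of the regional median the STR count was 14 of 44, with 13 higher and 1 lower (all genes 19.1% and 4.01%). The medians over members were then 0.23 in PFC and 0.43 in STR. With a minimum of 5 FPKM, 5 of 31 members had their highest mean level in PFC, compared to 12 of 48 at the main minimum. With FPKM divided by the region median, 13 of 48 were highest in PFC, 11 in CER and 24 in STR, compared to 12, 15 and 21 without it. Of the 24 differences past 1.5-fold, 12 fell within 1.5-fold with 1 FPKM added and 3 without subtraction of the median. None changed sign, but most alternatives could not change it. Other minimums, folds and choices of loci left a member's ratio as it was, and only pseudocount and centring altered it. With a minimum of 5 FPKM only 7 of the 24 were still counted. Counts without loci marked FAIL were 5 of 40, 8 of 33 and 8 of 38 in PFC, CER and STR. Without the 8 members whose locus overlaps a gene of at least 1 FPKM in some region, they were 6 of 39, 9 of 35 and 9 of 39. In total 18 members overlapped another gene. Those beside loci under 1 FPKM, among them COL21A1, COL17A1 and COL24A1, stayed in these counts. Both alternatives were chosen after seeing the data, and their shares of all genes, not filtered in this way, are those of the main setting.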

Other observations

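Further loci of these families carried no matching symbol in the tables and were named through the reference, so they stood outside the counts. TIMP2, written TIMP-2 in the tables and highly expressed in brain, was at 148.1 FPKM in PFC of Chinese origin and 114.5 FPKM in PFC of Indian origin, 53.2 and 45.4 in CER, and 125.3 and 70.4 in STR. It exceeded TIMP1, TIMP3 and TIMP4 in PFC and STR of both origins, and in CER its levels were close to those of TIMP4 (50.9 and 48.5 FPKM). Relative to the regional median its log2 difference was 0.18, 0.13 and 0.52. LAMC3, a gamma chain of laminins in cortex and retina, was at 2.54 and 1.72 FPKM in PFC, 1.49 and 0.917 in CER and 3.17 and 1.97 in STR, with differences of 0.35, 0.55 and 0.35. A second locus named COL18A1 was higher in Chinese-origin STR (2.23 and 1.04 FPKM, 0.73), where the locus of the report gave 0.52. Both loci named COL4A5 were highest in STR, the second with 15.6 and 11.2 FPKM.

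Among other matrix glycoproteins, MFAP5, a microfibril protein, was at 0.564 against 8.50 FPKM in CER of Chinese and Indian origin, a log2 difference of -3.79. BGN, FMOD and ELN were lower in the same samples, with differences of -0.59, -0.81 and -0.62, so that 4 of 18 genes of this list were lower and 0 higher in CER, where 6.46% of all genes were lower and 6.7% higher. SMOC2, a calcium-binding protein of basement membranes, was at 18.0 and 6.99 FPKM in CER (1.254), and HSPG2, which encodes perlecan, at 0.866 and 1.37 (-0.70). In STR the small proteoglycans OGN (22.4 and 8.57 FPKM, 1.07) and LUM (4.55 and 2.12 FPKM, 0.76) and the tenascin TNR (12.6 and 5.95 FPKM, 0.76) were higher in Chinese-origin monkeys. OGN and LUM also belong to the fibroblast markers.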
